A study of Homo sapiens with 21 samples.

Results

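Transcripts of 10 enzymes that make serine, asparagine, proline and mitochondrial one-carbon units were followed over a coumarin dose series, and at 100 µM 9 of the 10 were higher than in untreated cells. The 10 genes were taken by name from a deposited table of 58735 genes and are PHGDH, PSAT1, PSPH, SHMT2, MTHFD2, ALDH1L2, ASNS, PCK2, PYCR1 and ALDH18A1. They were chosen by what their enzymes do, with earlier results of these data known. All 10 passed the filter on low counts, which left 16699 genes to test.

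The label of the cells was HepG2, an established human hepatoblastoma line, and they were exposed for 24 h to coumarin, a plant benzopyrone. Groups of 3 libraries each received 0.001, 0.01, 0.1, 1, 10 or 100 µM coumarin, and 3 untreated libraries (0 µM) were kept in the same medium without it, 21 libraries in all. Per the labels, coumarin was dissolved in DMEM and diluted in DMEM free of serum, so that serum withdrawal was shared by every group, controls included. The labels call the 3 libraries of a group biological replicates without naming separate cultures, so p-values measure the spread between these libraries. The label was checked against 14 hepatocyte transcripts. ALB, TTR, APOC3, RBP4 and FGB had 0 counts in every library, which allows up to 0.111 CPM in the shallowest one, and none of the 14 reached a mean of 1 CPM. Their summed level per library was 0 to 0.314 CPM at 100 µM and 0.0334 to 0.161 CPM at 0 µM. Among listed epithelial transcripts, means were 2497 CPM for KRT8, 1197 for KRT18 and 751 for KRT7, but 0.0574 CPM for KRT19. Among mesenchymal ones they were 1211 CPM for COL3A1, 312 for VIM, 114 for COL1A1 and 36.2 for PDGFRB. The hepatocyte transcripts that the label implies were thus near 0, while the listed epithelial and mesenchymal ones other than KRT19 were well expressed. The values below are those of cells labelled HepG2.

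Serine is made from a glycolytic intermediate by PHGDH, PSAT1 and PSPH in turn. In mitochondria SHMT2 moves a carbon of serine onto folate, and MTHFD2 and ALDH1L2 oxidise that carbon further. ASNS makes asparagine from aspartate with glutamine as the nitrogen donor. PCK2 makes phosphoenolpyruvate inside mitochondria, and ALDH18A1 and PYCR1 catalyse the first and the last step of proline synthesis from glutamate. Several of these genes are textbook targets of ATF4, the transcription factor of the amino acid response, which binds C/EBP-ATF response elements. DMEM as usually made contains serine and glycine and lacks asparagine and proline, but the formulation used here was not given.

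Promoter windows were available for 6 of the 10 genes in the RefSeq table (GRCh38.p14, 7 windows, each from 250 bases before to 50 bases after a transcript start). Both strands were searched for TGATGNAA, the core of the C/EBP-ATF response element, and for the E-box CACGTG, which do not overlap in the windows of the 10 genes. TGATGNAA was found in 1 gene, ASNS, as TGATGAAA starting 68 bases before the transcript start, and 3.62% of 35116 human promoter windows of that length hold a match. The other ASNS window, at chr7:97872116-97872415, holds no match. CACGTG was found in 1 gene, ALDH18A1, starting 136 bases before the start, against 7.26% of all windows. The 250 bases before the start are shown for ASNS, the gene with the largest fold, for PSAT1, the largest fold among the abundant transcripts, and for ALDH18A1, the gene that did not rise. They lie at chr7:97872409-97872658 on the minus strand (ASNS), chr9:78296875-78297124 on the plus strand (PSAT1) and chr10:95656712-95656961 on the minus strand (ALDH18A1). They are written 5′ to 3′ with a matched motif in capitals, and PSAT1 holds neither motif.
ASNS: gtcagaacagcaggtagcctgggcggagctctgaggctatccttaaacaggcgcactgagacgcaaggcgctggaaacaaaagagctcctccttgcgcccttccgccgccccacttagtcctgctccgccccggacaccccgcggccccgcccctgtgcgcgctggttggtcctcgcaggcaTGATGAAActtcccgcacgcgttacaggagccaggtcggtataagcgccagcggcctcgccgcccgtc
PSAT1: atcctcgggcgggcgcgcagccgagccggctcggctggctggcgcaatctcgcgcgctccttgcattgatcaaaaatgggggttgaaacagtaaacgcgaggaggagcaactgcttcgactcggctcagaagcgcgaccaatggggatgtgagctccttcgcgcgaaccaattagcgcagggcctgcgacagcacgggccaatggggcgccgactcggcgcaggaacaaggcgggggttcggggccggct
ALDH18A1: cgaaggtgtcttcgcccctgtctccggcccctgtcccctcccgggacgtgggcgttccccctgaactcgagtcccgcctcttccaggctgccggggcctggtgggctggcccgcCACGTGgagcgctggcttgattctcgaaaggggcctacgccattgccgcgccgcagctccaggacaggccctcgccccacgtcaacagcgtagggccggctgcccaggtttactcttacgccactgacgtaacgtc
A match describes these letters and no binding was measured.

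Gene counts totalled 26984563 to 43375429 per library. Levels are given in CPM, the count scaled to the TMM-adjusted library total, and log2 changes come from 1 edgeR quasi-likelihood fit over the 21 libraries. A gene rose or fell where its Benjamini-Hochberg adjusted p over the 16699 genes was under 0.05. At 100 against 0 µM 14.4% of the genes tested rose and 12.9% fell, and the median log2 change of all of them was -0.01. With upper-quartile scaling 1875 rose and 2659 fell, against 2409 and 2149 here. Control replicates 2 and 3 stood apart in how much of the total behind FPKM lay beyond the counted genes: 8.03% and 8.17% there, 3.91% in control replicate 1 and 1.04% to 5.43% in treated libraries. Results against 0 µM were therefore also computed with control replicate 1 alone, and comparisons free of controls are given beside them. The 6 comparisons with 0 µM share the 3 controls. In bulk RNA, fewer cells of a type and less RNA per cell cannot be told apart. Of 9 tested transcripts that mark epithelial, mesenchymal, leukocyte or endothelial cells, 4 fell at 100 against 0 µM in edgeR (PDGFRB by 0.89, KRT18 by 0.58, KRT8 by 0.43 and COL3A1 by 0.29 on the log2 scale) and 0 rose. At 10 µM 1 of the 9 fell against 0 µM (KRT7 by 0.15), where 0.874% of all genes fell. Against 0.001 to 1 µM 6 fell, where 1.9% of all genes did. Against 0 µM 1, 4, 3 and 1 of the 9 rose at 0.001, 0.01, 0.1 and 1 µM, and 0 fell. Of all genes, 1.53%, 5.86% and 2.01% changed at 0.001, 0.01 and 1 µM, and 5.02% rose at 0.1 µM. At 100 against 10 µM 2 of the 9 rose and 4 fell, where 8.22% of all genes rose and 10% fell. The part of these marker transcripts in the results below was not tested.

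The 10 transcripts summed to 1350 CPM at 0.001 µM, 1381 at 0.01 µM, 1400.4 at 0.1 µM, 1396 at 1 µM, 1462 at 10 µM and 2379 CPM at 100 µM, with 1348 CPM at 0 µM. The SD between 3 libraries was 15.1 CPM at 100 µM, 11.9 at 10 µM and 46.7 at 0 µM. The sum was thus nearly level over 4 doses, and its main step lay between 10 and 100 µM. At 100 against 0 µM 9 of the 10 rose and 0 fell, beside the 14.4% and 12.9% of all genes, and the median log2 change of the 10 was 1.02. Among 16699 genes ordered from the largest rise, ASNS stood at place 7, PSAT1 at 29, PCK2 at 44, ALDH1L2 at 96, PSPH at 123 and PHGDH at 124. PYCR1, MTHFD2 and SHMT2 stood at places 538, 574 and 577, and ALDH18A1 at 10032. For 9 of the 10 the 3 libraries at 100 µM lay above the 3 controls, as they did for 20.9% of all genes. The same 9 lay above the 3 libraries at 10 µM (16% of all genes) and above the 12 at 0.001 to 1 µM (10.4% of all genes).

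**Figure D1:**
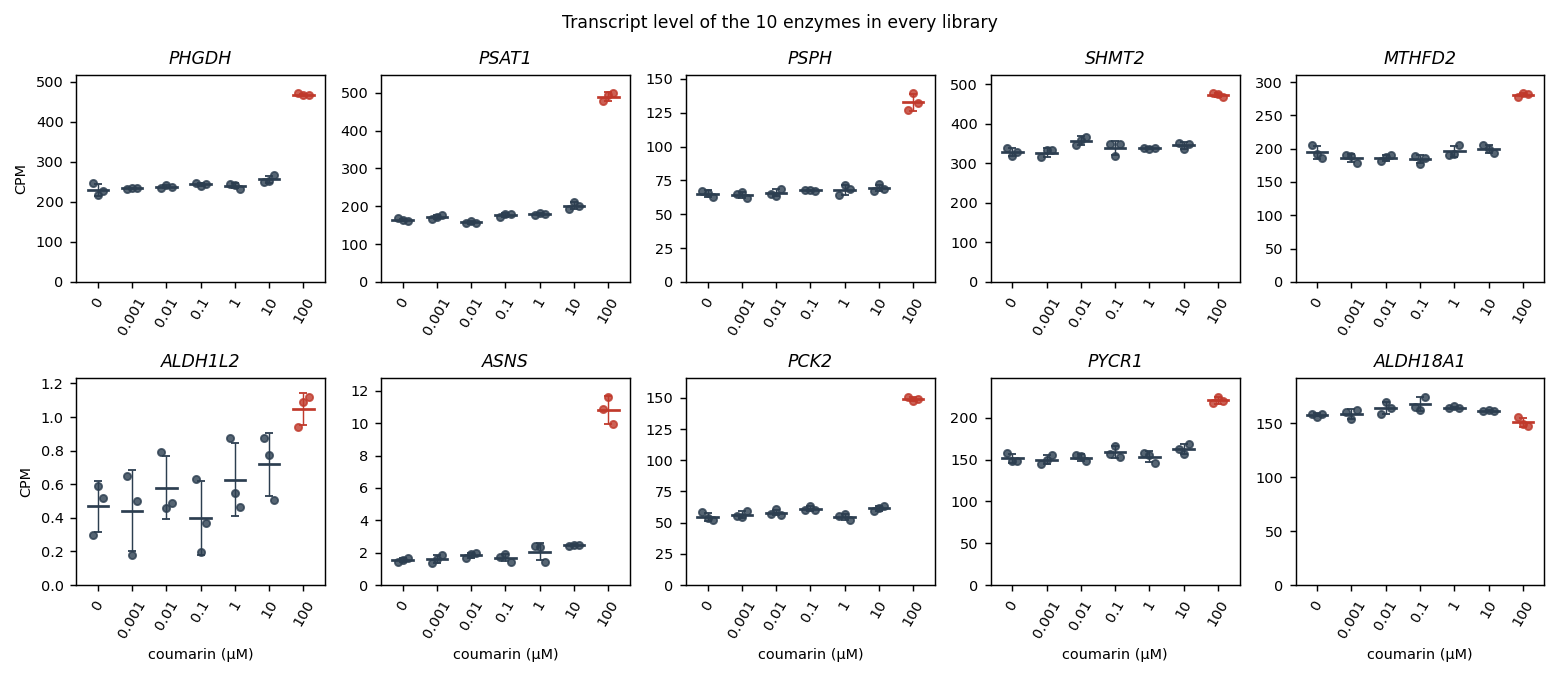
Transcript level in CPM (linear axes from 0, a scale for each gene) of the 10 enzymes at each coumarin dose in µM, with a point per library and bars for the mean and SD of 3 libraries. The points at 100 µM, in red, stand above all others in 9 panels, whereas ALDH18A1 was 147 to 155 CPM at 100 µM and 156 to 159 CPM at 0 µM.

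The serine synthesis enzymes rose together. PHGDH, phosphoglycerate dehydrogenase, commits carbon to the pathway (ENSG00000092621, GRCh38 chr1:119648411-119744226). It had 471, 467 and 467 CPM at 100 µM, against 247, 218 and 227 CPM at 0 µM. The 12 libraries at 0.001 to 1 µM had 233 to 246 CPM with a median of 239, so the 100 µM libraries stood apart from every lower dose and the controls spread wider than the low doses did. PHGDH rose 2.03-fold (log2 1.02 ± 0.039 SE, edgeR adjusted p = 1.06e-22).

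PSAT1, phosphoserine aminotransferase, takes the nitrogen of glutamate (ENSG00000135069, chr9:78297143-78330093). It had 477, 494 and 499 CPM at 100 µM, 194, 211 and 201 CPM at 10 µM, and 168, 162 and 161 CPM at 0 µM. The low doses ran from 155 to 181 CPM with a median of 174. No library at 10 or 100 µM overlapped the controls or the low doses, and the 3 levels stood in dose order. PSAT1 rose 2.99-fold at 100 against 0 µM (log2 1.58 ± 0.039, edgeR adjusted p = 8.86e-29), with the smallest p of the 10.

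PSPH, phosphoserine phosphatase, performs the last step (ENSG00000146733, chr7:56011051-56051604). It had 127, 139 and 132 CPM at 100 µM, against 67.2, 65.9 and 62.6 CPM at 0 µM, and 61.9 to 71.7 CPM (median 66.8) at 0.001 to 1 µM. The groups did not overlap, and the fold was close to that of PHGDH: 2.04-fold (log2 1.03 ± 0.046, edgeR adjusted p = 1.45e-20). A near-identical copy on the same chromosome, PSPHP1, was counted at 1356 to 2152 per library, up to 93.0% of PSPH, so the authors' counting may have split reads between them. PSPHP1 had 50.7 ± 3.22 CPM at 100 µM and 57.9 ± 2.06 CPM at 0 µM (SD, n = 3 each; log2 -0.19, edgeR adjusted p = 0.0482). With the counts of both added together, a setting chosen after seeing the data, the log2 change of PSPH was 0.58 and still passed. Copies named after the other members held at most 2 counts in any library.

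The mitochondrial one-carbon enzymes rose by less, apart from the scarce ALDH1L2. SHMT2, mitochondrial serine hydroxymethyltransferase (ENSG00000182199, chr12:57229327-57234935), had 477, 476 and 468 CPM at 100 µM, against 338, 318 and 328 CPM at 0 µM. Low-dose libraries held 315 to 367 CPM with a median of 339, overlapping the controls and lying below 100 µM. SHMT2 rose 1.44-fold (log2 0.53 ± 0.039, edgeR adjusted p = 8.36e-14). NDUFA4L2 overlaps it on the opposite strand with 19.3% of its counts on average, and had 68.6 ± 5.29 CPM at 100 µM and 68.7 ± 6.41 CPM at 0 µM (SD, n = 3 each; edgeR adjusted p = 0.981). Whether the counting used strand was not given.

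MTHFD2, the mitochondrial methylenetetrahydrofolate dehydrogenase and cyclohydrolase (ENSG00000065911, chr2:74198562-74217565), had 278, 283 and 281 CPM at 100 µM, against 206, 192 and 186 CPM at 0 µM. Values at 0.001 to 1 µM were 177 to 206 CPM, median 188. The 18 libraries below 100 µM formed 1 overlapping range. MTHFD2 also rose 1.44-fold (log2 0.53 ± 0.041, edgeR adjusted p = 3.22e-13).

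ALDH1L2, which oxidises formyl-tetrahydrofolate in mitochondria (ENSG00000136010, chr12:105019784-105084577), was at the edge of detection. Its counts were 27, 32 and 43 at 100 µM, against 9, 18 and 16 at 0 µM, which is 0.941, 1.09 and 1.12 CPM against 0.300, 0.591 and 0.516 CPM. Low-dose libraries held 0.179 to 0.874 CPM with a median of 0.493, and a count of 3 corresponds to 0.0692 to 0.111 CPM across libraries. The groups did not overlap, but each value rests on few reads. ALDH1L2 rose 2.23-fold (95% interval 1.36 to 3.66, log2 1.16 ± 0.35, edgeR adjusted p = 0.0120). The call was lost without control replicate 1 (log2 0.92, edgeR adjusted p = 0.0700), with limma on FPKM and at an adjusted p under 0.01. Over the settings that tested it, the adjusted p ranged from 0.00411 to 0.114. With a filter of 1 CPM in 3 libraries ALDH1L2 was not tested. C12orf45, which overlaps it on the opposite strand with 632 to 1164 counts per library, rose by 0.44 (31.8 ± 1.78 CPM at 100 µM and 23.4 ± 1.56 CPM at 0 µM, edgeR adjusted p = 7.64e-07). With no strand setting stated, reads in any stretch shared by the 2 genes may have been counted for the wrong one. How much of their exons is shared was not measured.

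ASNS, asparagine synthetase (ENSG00000070669, chr7:97852118-97872542), showed the largest fold of the 10, from a low level. Its counts were 313, 343 and 381 at 100 µM, against 42, 47 and 52 at 0 µM, that is 10.9, 11.6 and 9.94 CPM against 1.40, 1.54 and 1.68 CPM. At 10 µM it had 2.41, 2.50 and 2.47 CPM, and at 0.001 to 1 µM 1.39 to 2.41 CPM with a median of 1.80. The 100 µM libraries stood far above the rest, and those at 10 µM lay above the controls and met the highest low-dose library. ASNS rose 6.99-fold at 100 against 0 µM (95% interval 5.68 to 8.61, log2 2.81 ± 0.15, edgeR adjusted p = 2.91e-18). The promoter window shown above for ASNS holds the TGATGAAA match, its other window does not, and a link between match and fold was not tested.

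PCK2, mitochondrial phosphoenolpyruvate carboxykinase (ENSG00000100889, chr14:24094053-24110598), had 151, 148 and 149 CPM at 100 µM, against 58.5, 53.7 and 52.2 CPM at 0 µM. Low doses gave 51.8 to 63.3 CPM, median 57.1, a range that covered the controls. PCK2 rose 2.73-fold (log2 1.45 ± 0.047, edgeR adjusted p = 6.39e-25).

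The proline pair split. PYCR1, the mitochondrial pyrroline-5-carboxylate reductase that finishes proline (ENSG00000183010, chr17:81932384-81942412), had 217, 226 and 221 CPM at 100 µM, against 158, 149 and 148 CPM at 0 µM and 145 to 167 CPM (median 155) at 0.001 to 1 µM. It rose 1.46-fold (log2 0.54 ± 0.042, edgeR adjusted p = 2.26e-13). ALDH18A1, pyrroline-5-carboxylate synthase, supplies the step before (ENSG00000059573, chr10:95605929-95656706). It had 155, 149.5 and 147 CPM at 100 µM, 162, 162 and 161 CPM at 10 µM, and 159, 156 and 158 CPM at 0 µM. The 100 µM libraries were thus the lowest of the 3 groups, by a few percent. Against 0 µM the log2 change was -0.06 (95% interval -0.14 to 0.01, edgeR adjusted p = 0.224). With upper-quartile scaling it was -0.10 and passed (edgeR adjusted p = 0.0468). Its groups did not overlap, with 100 µM below, as for 19.9% of all genes.

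**Figure D2:**
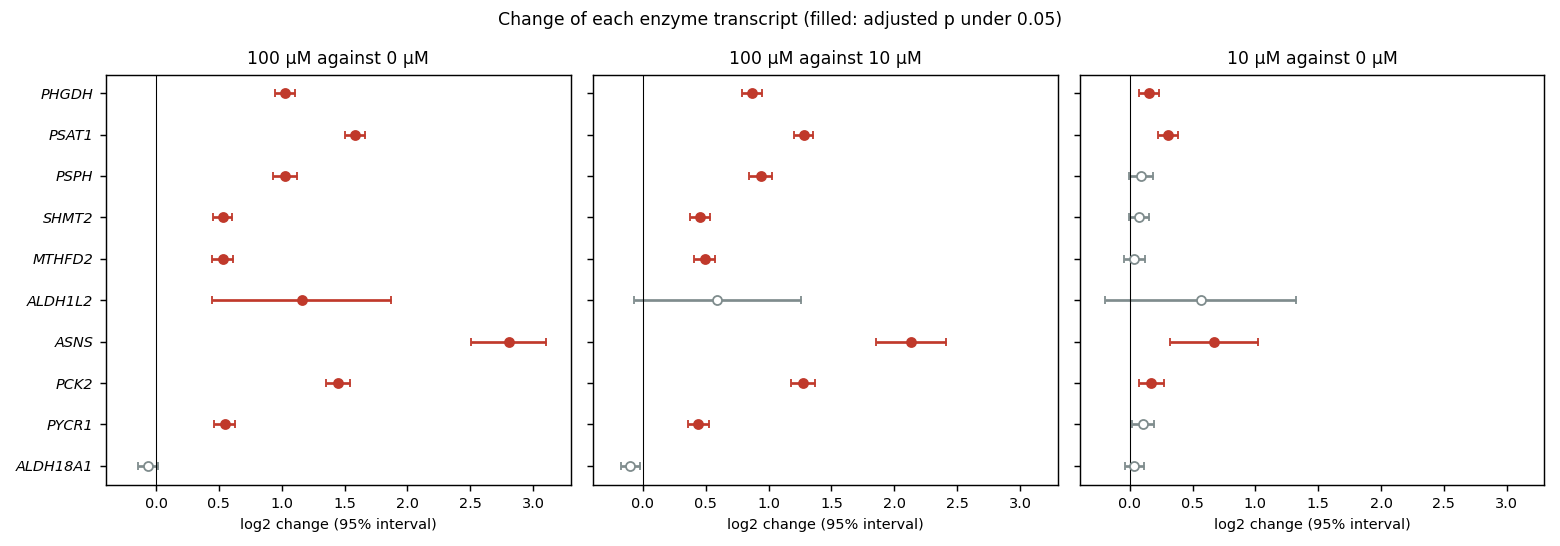
Log2 change of each of the 10 transcripts with its 95% interval for 100 against 0 µM, 100 against 10 µM and 10 against 0 µM (edgeR, 3 libraries a group); filled points passed the adjusted p of 0.05. ASNS lay at 2.81, 2.13 and 0.67, while ALDH18A1 was near 0 in each panel.

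Comparisons that used no control library were made next. At 100 against 10 µM 8 of the 10 rose and 0 fell, where 8.22% of all genes rose and 10% fell. The folds were 4.39 for ASNS, 2.43 for PSAT1, 2.42 for PCK2, 1.91 for PSPH, 1.82 for PHGDH, 1.41 for MTHFD2, 1.37 for SHMT2 and 1.36 for PYCR1. ALDH1L2 (log2 0.59, edgeR adjusted p = 0.236) and ALDH18A1 (log2 -0.10, edgeR adjusted p = 0.0631) did not pass, and ALDH18A1 passed as a fall in 4 of 11 other settings. At 100 µM against the 12 libraries at 0.001 to 1 µM, 9 rose and 1 fell, where 16.6% of all genes rose and 16.5% fell. The 1 that fell was ALDH18A1, by 0.12 on the log2 scale (edgeR adjusted p = 0.00229), although its libraries overlapped: 147 to 155 CPM at 100 µM against 153 to 175 CPM with a median of 164. ALDH1L2 rose 2.09-fold there (edgeR adjusted p = 0.00131), a call lost with limma on log2(FPKM + 0.1) (adjusted p = 0.0533).

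Below 100 µM the changes were small. At 10 against 0 µM 4 of the 10 rose and 0 fell, where 1.74% of all genes rose and 0.874% fell. PSAT1 rose 1.23-fold (log2 0.30 ± 0.039, edgeR adjusted p = 7.33e-06) and kept its call in all 12 other settings and all 6 fits without 1 library. PHGDH had 251, 253 and 266 CPM at 10 µM, against 247, 218 and 227 CPM at 0 µM, and rose by 0.16 (edgeR adjusted p = 0.0230). ASNS rose by 0.67 (edgeR adjusted p = 0.0250) and PCK2 by 0.17 (edgeR adjusted p = 0.0438). In 6 of the 10 the libraries at 10 µM lay above the controls without overlap, as in 8.87% of all genes. The calls other than that of PSAT1 were fragile. With control replicate 1 alone PSAT1 passed and PHGDH (log2 0.06), ASNS (0.81) and PCK2 (0.08) did not. The ASNS call was lost in each of the 6 fits that left out 1 library (edgeR adjusted p between 0.0550 and 0.0840), and 1 to 3 members passed in those 6 fits. PHGDH passed only without control replicate 1, 10 µM replicate 1 or 10 µM replicate 2, and PCK2 only without control replicate 1. At 10 µM against 0.001 to 1 µM 2 of the 10 rose and 0 fell, where 0.725% of all genes rose and 1.9% fell. They were PSAT1 (log2 0.24, edgeR adjusted p = 1.26e-06) and ASNS (log2 0.45, edgeR adjusted p = 0.0483), of which ASNS kept its call in 4 of 11 other settings and in 5 of 15 fits without 1 library. It was lost without any 1 of the 3 libraries at 10 µM or at 0.01 µM, and without 0.001 µM replicate 1, 0.1 µM replicates 1 or 3, or 1 µM replicate 3. PHGDH was at 0.10 (edgeR adjusted p = 0.0614). It stayed short of the threshold in 6 of 11 other settings and in all 15 fits without 1 library. It passed with upper-quartile scaling, a filter of 1 CPM in 3 libraries, only the groups compared, and DESeq2. It also passed with the share of reads beyond the counted genes as a covariate. PSAT1 and PHGDH lay above all 12 low-dose libraries, as did 0.719% of all genes.

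At 0.001, 0.01 and 1 µM 0 of the 10 passed against 0 µM, where 1.53%, 5.86% and 2.01% of all genes did in either direction. DESeq2 called 1 member at 0.01 µM and 1 at 1 µM. At 0.1 µM PCK2 alone passed (59.8, 63.3 and 59.8 CPM at 0.1 µM, against 58.5, 53.7 and 52.2 CPM at 0 µM; log2 0.16, edgeR adjusted p = 0.0459), where 5.02% of all genes rose and 1.43% fell. It kept that call in 2 of 12 other settings and in 1 of 6 fits without 1 library, that without control replicate 1. The largest member change at 0.01 µM by p was that of SHMT2 (log2 0.12, edgeR adjusted p = 0.0575).

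Levels per length, as FPKM deposited by the authors, give an order of the genes that depends on the gene lengths deposited with the counts. These were 9217 bases for PHGDH, 4870 for MTHFD2, 4838 for SHMT2 and 2188 for PSAT1. By CPM at 0 µM PHGDH had 231 and PSAT1 164, the reverse of their FPKM order. PSPH may also share reads with PSPHP1. At 100 µM the order was PSAT1 (215 FPKM), SHMT2 (94.2), PYCR1 (73.7), MTHFD2 (55.5), PHGDH (48.9), PSPH (46.3), ALDH18A1 (38.5), PCK2 (34.3), ASNS (2.34) and ALDH1L2 (0.119 FPKM). At 0 µM it was PSAT1 (71.7 FPKM), SHMT2 (65.0), PYCR1 (50.4), ALDH18A1 (40.1), MTHFD2 (38.3), PHGDH (24.0), PSPH (22.6), PCK2 (12.5), ASNS (0.332) and ALDH1L2 (0.0529 FPKM). The libraries of ALDH18A1 and MTHFD2 overlapped at 0 µM, as did those of PHGDH and PSPH, and the other neighbours did not. ALDH18A1 stood below MTHFD2, PHGDH and PSPH at 100 µM and above all 3 by mean at 0 µM. ASNS, first by fold, remained among the 2 lowest by level.

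**Figure D3:**
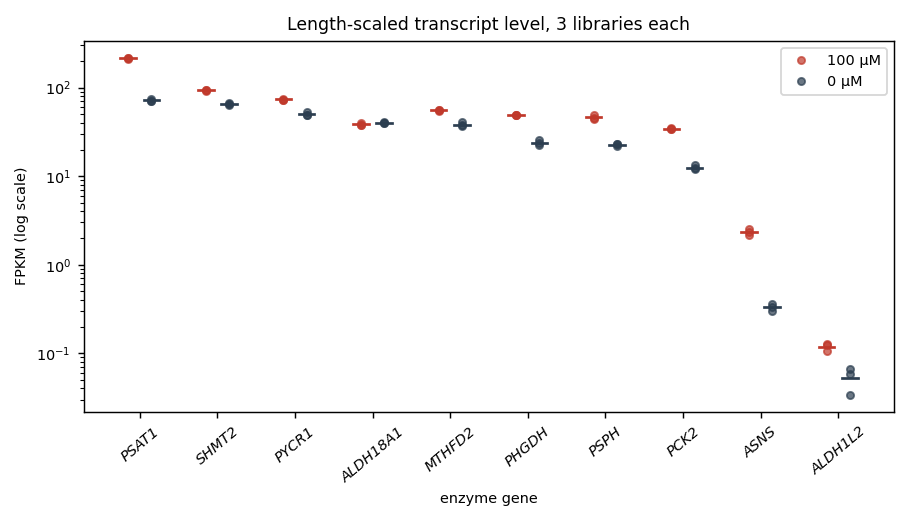
Deposited FPKM (log axis) of the 10 transcripts at 100 µM (red) and 0 µM (grey), with a point per library and a line at the mean of 3. PSAT1 stood at 215 FPKM at 100 µM and 71.7 FPKM at 0 µM, and ASNS at 2.34 and 0.332 FPKM.

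Cytosolic or sister enzymes of the members were tested in 8 of 9 cases, and at 100 against 0 µM 2 of the 8 rose and 1 fell, where 14.4% of all genes rose and 12.9% fell. Counts this small cannot be set apart from those shares. MTHFD1L, which releases formate in mitochondria, rose by 0.31 (111 ± 2.82 CPM at 100 µM and 89.8 ± 2.80 CPM at 0 µM; edgeR adjusted p = 1.17e-06). MTHFD1, the cytosolic folate enzyme with several activities, rose by 0.14 (247 ± 3.31 CPM at 100 µM and 225 ± 9.82 CPM at 0 µM; edgeR adjusted p = 0.00431), a call lost with control replicate 1 alone, with the share of reads beyond the counted genes as a covariate, and without control replicate 3. PCK1, the cytosolic partner of PCK2, fell by 0.49 (3.54 ± 0.197 CPM at 100 µM and 4.96 ± 0.471 CPM at 0 µM; edgeR adjusted p = 0.0466), a call lost with DESeq2, with limma, at an adjusted p under 0.01, with control replicate 1 alone and whenever 1 library other than control replicate 2 was left out. SHMT1 (log2 0.10), PYCR3 (-0.01), MTHFD2L (-0.10) and ASNSD1, an asparagine synthetase-like gene (0.13), did not pass (edgeR adjusted p of 0.0811 to 0.954), and ALDH1L1 had 0 to 2 counts per library.

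Ratios of counts within a library need no scaling factor, and 12 pairs were compared over the 3 libraries at 100 µM and the 12 at 0.001 to 1 µM. An exact two-sided permutation test over libraries was used with Benjamini-Hochberg adjustment over the 12 pairs. In 10 pairs the ratio was higher at 100 µM with no overlap, each at the smallest p that 455 assignments allow (exact permutation p = 0.0044, adjusted 0.00527). The first gene of each of these pairs was a member that itself lay above the 12 low-dose libraries. The pairs were also chosen with earlier results known. The share of all gene pairs that separate in this way was not computed, so this count adds no support beyond the single-gene results. The log2 ratio of ASNS to ASNSD1 was -2.41, -2.35 and -2.59 at 100 µM, against -5.30 to -4.55 at the low doses, a difference of 2.44. PCK2 to PCK1 was 5.46, 5.29 and 5.43 at 100 µM, against 3.23 to 4.95, a difference of 1.49, with the highest low-dose value from 1 µM replicate 2, where PCK1 had 60 counts. For ASNS the difference was larger than the whole range of the low-dose libraries, and for PCK2 it was smaller than that range although the groups did not overlap.

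Smaller shifts followed the same direction. The ratio of PYCR1 to ALDH18A1 was 0.49, 0.59 and 0.58 at 100 µM, against -0.19 to 0.04 at the low doses, so the last proline enzyme gained on the first by 0.64. PYCR1 also gained on PYCR3 by 0.42. Within the one-carbon step MTHFD2 gained 0.55 on MTHFD2L, 0.52 on MTHFD1 and 0.37 on MTHFD1L, and SHMT2 gained 0.44 on SHMT1. Inside the serine pathway PSAT1 gained 0.55 on PHGDH (0.02, 0.08 and 0.10 at 100 µM, against -0.62 to -0.39). PSPH to PHGDH differed by 0.03 (-1.89, -1.75 and -1.82 at 100 µM, against -1.93 to -1.76; exact permutation p = 0.554), and MTHFD2 to SHMT2 by 0.10 (exact permutation p = 0.0527, adjusted 0.0575). Those 2 pairs overlapped between the groups. The PSPH ratio used PSPH counts alone, and no ratio was computed with PSPHP1 counts added. With them added, PSPH rose by 0.58 on the log2 scale at 100 against 0 µM, where PHGDH rose by 1.02. At 100 against 0 µM, with no test, MTHFD2 gained 0.63 on MTHFD2L, 0.39 on MTHFD1 and 0.22 on MTHFD1L. SHMT2 gained 0.43 on SHMT1, PYCR1 0.61 on ALDH18A1 and 0.55 on PYCR3, and PSAT1 0.56 on PHGDH. ASNS gained 2.67 on ASNSD1 and PCK2 1.93 on PCK1. MTHFD2 to SHMT2 differed by 0.0017 and PSPH to PHGDH by 0.0004.

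**Figure D4:**
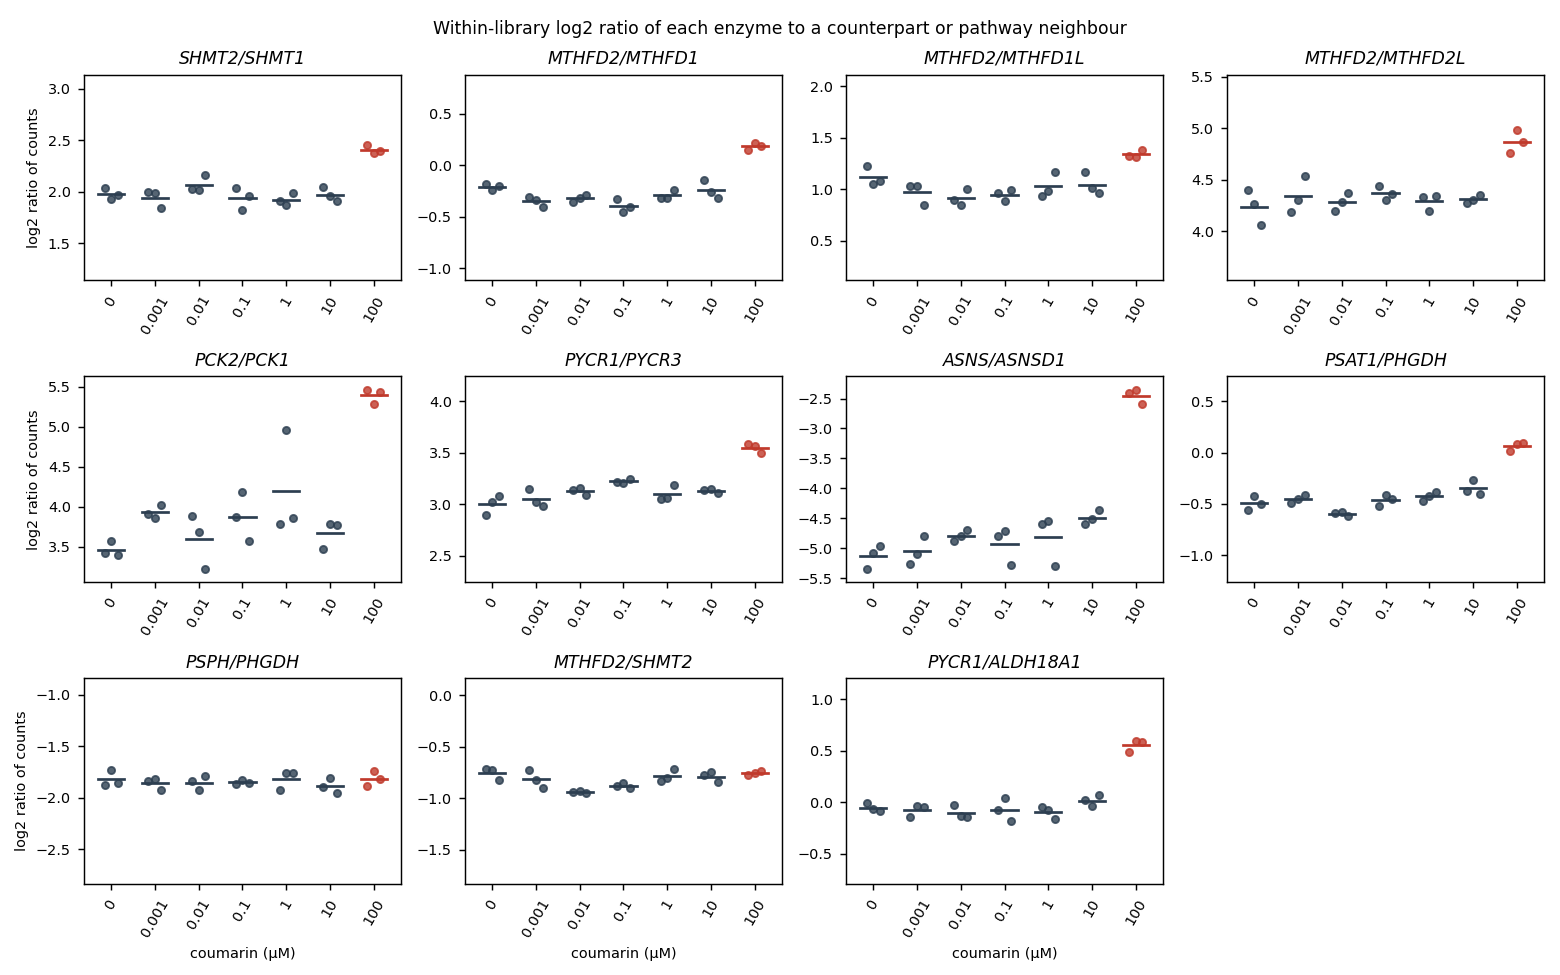
Log2 ratio of counts of 2 genes within each library by coumarin dose in µM, for 11 of the pairs, with a point per library and a line at the mean of 3. The 3 points at 100 µM (red) lie above the 12 at 0.001 to 1 µM in 9 panels and among them for PSPH/PHGDH and MTHFD2/SHMT2.

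The rest of each pathway was counted in lists chosen with earlier results known, beside the median log2 change of -0.01 over all genes at 100 against 0 µM and the 14.4% that rose and 12.9% that fell. Of 23 tested folate and one-carbon genes 8 rose and 3 fell (median 0.09; 4 fell with upper-quartile scaling), among them SLC19A1, the reduced folate carrier (log2 0.29), and MAT2A, which makes S-adenosylmethionine (0.29). Of 16 tested genes of serine and glycine use 6 rose and 1 fell (median 0.05), led by SDSL, a serine dehydratase-like gene (log2 0.80), and CTH, which makes cysteine from cystathionine (0.54). With control replicate 1 alone 4 of 24 tested folate genes rose and 2 fell, and 2 of the 16 serine and glycine genes rose and 0 fell, SDSL no longer passing, nor did it with the covariate.

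Of 16 tested genes of asparagine, aspartate and glutamine metabolism 6 rose and 2 fell (median 0.10). ASS1, which consumes aspartate in arginine synthesis, rose 2.32-fold (427 ± 12.1 CPM at 100 µM and 185 ± 8.16 CPM at 0 µM, edgeR adjusted p = 2.13e-23). GPT2, the mitochondrial alanine transaminase, rose 2.08-fold, and the aspartate and glutamate transporter SLC1A3 rose 1.81-fold. GLUL, glutamine synthetase, fell by 0.67 on the log2 scale (49.0 ± 1.51 CPM at 100 µM and 78.0 ± 2.31 CPM at 0 µM, edgeR adjusted p = 1.37e-14). Of 11 tested proline and ornithine genes 2 rose and 2 fell (median 0.03; 3 fell with upper-quartile scaling), close to the 14.4% and 12.9% of all genes. ODC1, ornithine decarboxylase, rose by 0.40 and ARG2, mitochondrial arginase, by 0.29, while the proline breakdown enzyme gene ALDH4A1 fell by 0.25 and the collagen prolyl hydroxylase gene P4HA2 by 0.18. Both falls were lost with limma, at an adjusted p under 0.01, with control replicate 1 alone, without control replicate 3 and without 100 µM replicate 3. ALDH4A1 was also lost with DESeq2, with no filter and without control replicate 1 or 100 µM replicate 1, and P4HA2 without 100 µM replicate 2.

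Of 8 genes of the ATF4 axis, a list also chosen with earlier results known, 4 rose and 1 fell at 100 against 0 µM (median 0.33). Of all genes, 14.4% rose and 12.9% fell. The pseudokinase gene TRIB3 rose by 1.38, the stress transcription factor gene DDIT3 by 1.13, CEBPB by 0.63 and ATF4 itself by 0.56 (573 ± 4.35 CPM at 100 µM and 388 ± 10.9 CPM at 0 µM, edgeR adjusted p = 1.49e-14). The kinase gene EIF2AK3 fell by 0.20, a call lost with no filter, at an adjusted p under 0.01, with control replicate 1 alone and with the covariate. It was also lost without control replicate 2, control replicate 3, 100 µM replicate 1 or 100 µM replicate 3.

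The genes whose dose pattern lay nearest to the median pattern of the 10 were ranked by the root mean square difference of centred log2 CPM over the 7 group means, among 11463 protein-coding genes of at least 1 CPM. They were SARS (0.0384), GARS (0.0408), CEBPG (0.0419), CARS (0.0429) and GPT2 (0.0491). SARS, GARS and CARS encode the cytosolic seryl-, the glycyl- and the cysteinyl-tRNA synthetase, and CEBPG encodes a C/EBP transcription factor. SARS had 278 ± 2.29 CPM at 100 µM and 146 ± 4.45 CPM at 0 µM (SD, n = 3 each). Among the members PHGDH (0.0227) and PSPH (0.0322) lay closest to that median, and ALDH18A1 (0.376) and ASNS (0.578) farthest. These are descriptions over 7 groups that share their libraries, with no test.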

How the data were processed

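Poly(dT)-selected RNA was sequenced from 21 libraries. Raw counts per gene were deposited by the authors as whole numbers, and a second deposited table holds FPKM, per gene length and library total. HISAT2, DESeq2 and GRCh38 are named in the submitters' processing notes, with no role; the counter and strand setting were not given in the sources used here. The 10 members, the lists and the rules were chosen with earlier results of these data known. Named were all members, the counterparts, up to 6 list genes each way by size among those past the threshold, and the 5 nearest dose patterns. Overlapping genes were named after their values were seen. A few genes of the lists are counted but not reported here by name.

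Counts were filtered by filterByExpr, scaled by TMM and fitted in edgeR 4.0.16 (R 4.3.3; robust quasi-likelihood F test, 14 residual degrees of freedom, 16699 genes, Benjamini-Hochberg, threshold 0.05). Ratios used counts plus 0.5 and scipy 1.17.1. Gene coordinates are those deposited by the authors with the counts, taken as GRCh38, the build in their processing notes. The fit was tested on simulated data. Alternatives were DESeq2 1.42.0, limma 3.58.1 on log2 FPKM plus 1 or 0.1, 2 other scalings, no filter or 1 CPM in 3 libraries, only the groups compared, a replicate block, an adjusted p under 0.01, control replicate 1 alone (1 library, with the spread taken from the other groups), the share of reads outside counted genes as covariate, and each library left out. Floors of 3 counts cover counting error only.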

Additional observations from a re-analysis of the deposited data

How the results depend on the processing

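At 100 against 0 µM, 175 of 180 single-gene values over all alternatives kept their direction and side of the threshold, as did 165 of 170 at 100 against 10 µM, 259 of 260 at 100 µM against 0.001 to 1 µM and 83 of 84 ratios. At 10 µM it was 145 of 180 against 0 µM and 238 of 260 against 0.001 to 1 µM. In the single-gene totals ALDH1L2 has no value with the filter of 1 CPM in 3 libraries. PSPH has an extra value there, with PSPHP1 counts added. The members past the threshold at 10 against 0 µM, 4 in the reported fit, numbered 2 with upper-quartile scaling, 2 with limma at either pseudocount, and 1 with only the groups compared, an adjusted p under 0.01, control replicate 1 alone or the covariate. At 10 µM against 0.001 to 1 µM, 2 became 1 with the replicate block, limma at either pseudocount or an adjusted p under 0.01. At 0.1 µM, 1 became 2 with DESeq2 and 0 with RLE or upper-quartile scaling, the 1 CPM filter, only the groups compared, the replicate block, limma at either pseudocount, an adjusted p under 0.01, control replicate 1 alone or the covariate. At 0.01 µM, 0 became 1 with only the groups compared and with DESeq2, and at 1 µM 0 became 1 with DESeq2. Without 1 library the counts were 0 to 0 at 0.001 µM, 0 to 1 at 0.01 µM, 0 to 3 at 0.1 µM, 0 to 1 at 1 µM, 1 to 3 at 10 µM, 8 to 9 at 100 µM, 8 to 9 at 100 against 10 µM, 10 to 10 at 100 µM against 0.001 to 1 µM, 1 to 2 at 10 µM against them and 10 to 10 for the ratios. The 3 at 0.1 µM came without control replicate 1. MTHFD2 at 10 against 0 µM turned to -0.0443 with control replicate 1 alone and to -0.0102 with the covariate, and the PSPH to PHGDH ratio to -0.0112 without 100 µM replicate 2 (0.0617 at most, without replicate 1). The cause was not tested. Over all genes at 100 against 0 µM, 1047 rose and 1175 fell with control replicate 1 alone and 1325 and 1474 with the covariate, against 2409 and 2149, and the share of rises among calls was 41.4% with upper-quartile scaling, against 52.9%. At 10 against 0 µM 291 rose and 146 fell, against 66 and 25 with control replicate 1 alone, 67 and 53 with the covariate, 113 and 100 with only the groups compared, and 129 and 215 with upper-quartile scaling. Replicate numbers did not pair the libraries: over 63 same-numbered pairs the correlation of deviations was -0.13 to 0.10. With the replicate block 9 members still rose at 100 against 0 µM. Depth limits ALDH1L2 most, at 5 to 43 counts per library, and ASNS below 100 µM, at 39 to 107.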
